A study of Xenopus laevis with 25 samples.

Results

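The RNF20 morpholino time course comprises 15 of the 25 RNA-seq libraries of a study of Xenopus embryos, chosen by their titles. It was read here as 6 libraries at 15 and 16 hours post fertilization (hpf) against 6 libraries at 12 and 13 hpf, with 3 libraries at 14 hpf as the midpoint, so each hour has 3 libraries. All 15 come from embryos given a morpholino against RNF20, and the labels give no dose, control morpholino, number of embryos or clutch. The other 10 libraries, 2 per hour, come from wild-type embryos and serve only as a comparison. Poly(A)-selected RNA of embryos was sequenced, and the study's title ties ubiquitination of histone H2B to heart development and cilia motility. Values are CPM (the counts of a transcript relative to the total of its library), scaled by trimmed mean of M values, and a change is the log2 of the later over the earlier level.

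Morpholinos are stable antisense oligomers that keep a chosen RNA from being translated or spliced. RNF20 is a ubiquitin ligase that acts with RNF40 to attach a single ubiquitin to histone H2B in transcribed genes. Over the hours around the end of gastrulation, Xenopus embryos stop laying down mesoderm and endoderm at the blastopore, raise the neural plate, form somites and notochord, and begin to make muscle proteins and the cilia of the epidermis.

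The 15 morpholino libraries held 14.8e6 to 36.2e6 estimated counts, the most in replicate 3 at 15 hpf. At every hour replicate 3 correlated less with replicates 1 and 2 than those did with each other. The correlation of its log2 CPM with replicates 1 and 2 of the same hour was 0.825 to 0.939, against 0.948 to 0.966 between replicates 1 and 2, and it was lowest at 16 hpf. The gap was small at 12 hpf for replicate 2, at 0.939 with replicate 3 and 0.948 with replicate 1. The scaling factor of replicate 3 at 16 hpf was 0.71, against 0.92 to 1.12 in the other morpholino libraries. A smaller factor raises all CPM of a library. Transcripts encoded in mitochondria took 2.31% to 2.89% of counts in replicate 3 and 1.33% to 1.89% in replicates 1 and 2, against 1.15% to 1.4% in wild type. The part of this share in the results below was not tested. Gene lists are given with and without replicate 3, and single transcripts also without it where its omission turned a call or moved a change by over 1.5 times. The ectoderm transcripts krt19 and sox2, the mesoderm transcripts tbxt and myod1 and the endoderm transcript sox17a were above 0 CPM in all 15 libraries.

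The target transcript was measured first. Rnf20 had a lowest, median and highest level of 52.5, 68.8 and 84.4 CPM at 15-16 hpf, against 63.8, 72.4 and 96.2 CPM at 12-13 hpf. The 2 ranges overlapped, and the change of -0.16 ± 0.14 (SE) did not pass (edgeR adjusted p = 0.466). In wild type rnf20 had 74.5, 64.9, 80 and 69.3 CPM at 15-16 hpf, against 48.5, 38.2, 61.5 and 47.8 CPM at 12-13 hpf. The 4 later wild-type libraries were above the 4 earlier ones. The difference between the time changes, morpholino minus wild type, was -0.74 and did not pass (edgeR adjusted p = 1). The level of an RNA need not fall under a morpholino, so these values do not check the knockdown. Its partner rnf40 had 89, 120 and 207 CPM at 15-16 hpf, against 126, 140 and 153 CPM at 12-13 hpf, with overlapping ranges and a change of -0.14 ± 0.14 (SE; edgeR adjusted p = 0.542). Without replicate 3 the change of rnf40 was -0.22 and passed, and that of rnf20 was -0.01 and did not.

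Between 12-13 and 15-16 hpf, transcripts that rose in morpholino embryos included those of muscle, extracellular matrix, notochord, and blood or endothelium. Those that fell included early mesendoderm, germ plasm and cell division transcripts. Of 15945 transcripts tested, 309 were higher at 15-16 hpf (1.94%) and 223 were lower (1.4%) by edgeR's quasi-likelihood test at an adjusted p under 0.05, in all 3.34%. The risers had a median change of 1.24 and the fallers one of -0.85, against 0.036 over all tested transcripts. The 6 later and the 6 earlier libraries did not overlap for 340 of the 532 called transcripts. Over all transcripts, 2.32% had every later library above every earlier one, and 2.3% had every one below.

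The number of calls turned on single libraries. Without replicate 3, 3391 transcripts were higher (21.3%) and 3354 lower (21%), 42.3% in all of the 15935 then tested. List counts without replicate 3 are to be read against these shares. With all libraries, 2 other tests called, over all 15945 transcripts, 1403 higher and 877 lower (DESeq2) and 222 and 212 (voom). Their list counts are to be read against those totals. With the replicate number as a block, edgeR called 2211 higher and 1645 lower over all libraries, with all 532 still called. A transcript given below as not passing did so in the fit without this block. Of the 532 transcripts called with all libraries, 530 were called without replicate 3, and all 532 kept their sign. Without replicate 1, and likewise without replicate 2, edgeR called 0 transcripts (2350 and 1080 at an unadjusted p under 0.05), so none of the 532 remained called. Omitting 1 library changed the total to between 2 calls (replicate 2 of 12 hpf omitted) and 3837 calls (replicate 3 of 16 hpf omitted). The total was 810, 45, 95, 31 and 32 without replicates 1 and 3 at 12 hpf and replicates 1, 2 and 3 at 13 hpf, in that order. It was 228, 116 and 680 without replicates 1, 2 and 3 at 14 hpf, and 25, 14 and 1120 without replicates 1, 2 and 3 at 15 hpf. It was 47 and 76 without replicates 1 and 2 at 16 hpf. The adjusted p of the called transcripts had a median of 0.0418, so most lay just inside the threshold. In each of these fits, every one of the 532 that had a value kept its direction, but the fits share most libraries with the choice of the 532. Without replicate 2, 529 had a value.

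For most transcripts called without it, replicate 3 changed in the same direction between 12-13 and 15-16 hpf, from a different starting point. For the 3348 transcripts called higher without it that were also tested with it, the change between 12-13 and 15-16 hpf had a median of 0.74 in replicate 1, 0.96 in replicate 2 and 0.51 in replicate 3. Replicate 3, which had no part in that choice, rose in 2377 of them (71%), against 45.5% of all tested transcripts. For the 3354 called lower the medians were -0.41, -0.49 and -0.37, and replicate 3 fell in 2581 (77%), against 54% of all tested transcripts. Set against the 12-13 hpf mean of replicates 1 and 2, the median riser in replicate 3 was at -0.59 at 12 hpf and -0.52 at 13 hpf. It was at -0.28, 0.08 and -0.12 at 14, 15 and 16 hpf, while replicates 1 and 2 were at 0.99 and 0.92 at 16 hpf. The median faller in replicate 3 was at 0.3, 0.28, 0.15, -0.06 and 0.007 at 12, 13, 14, 15 and 16 hpf. Replicates 1 and 2 were at -0.54 and -0.5 at 16 hpf. Between 15 and 16 hpf both medians of replicate 3 thus turned back towards their earlier levels.

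**Figure D1:**
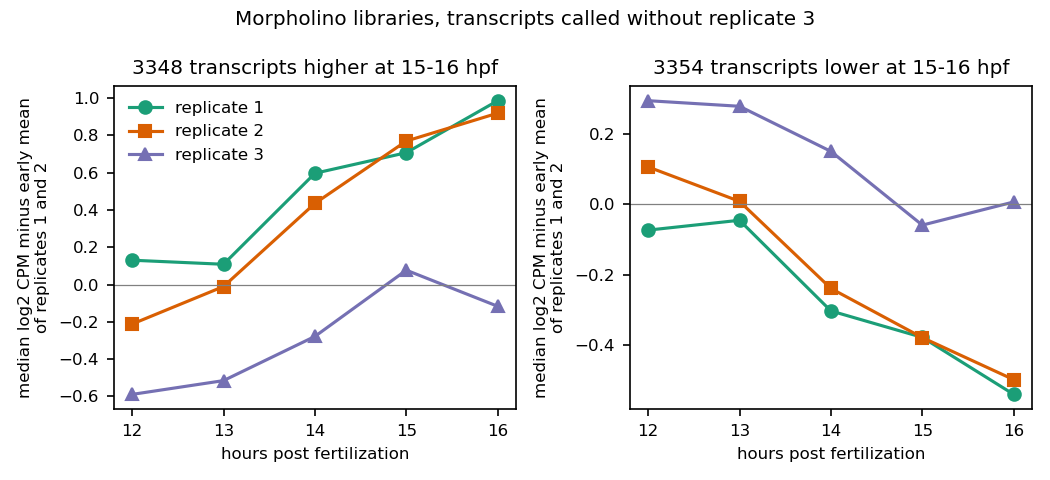
Median log2 CPM in each morpholino library, minus the mean of replicates 1 and 2 at 12-13 hpf, over transcripts called without replicate 3 (left, 3348 higher; right, 3354 lower), against hours post fertilization. Lines join the 5 libraries of a replicate number; replicate 3 starts at -0.59 for the risers and ends at -0.12, below both other replicates at each hour.

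The 10 largest rises among transcripts that had a symbol, averaged at least 1 log2 CPM and did not overlap included muscle, vessel and cell-contraction genes. Casq2, the calcium store protein of muscle, had 4.27, 14 and 21.9 CPM at 15-16 hpf, against 0.442, 2.3 and 3.3 CPM at 12-13 hpf, a change of 2.73 ± 0.55 (SE; edgeR adjusted p = 0.0316). Cavin1, a coat protein of caveolae, had 10.6, 26.7 and 44.7 CPM, against 1.58, 4.11 and 6.07 CPM, a change of 2.74 ± 0.46 (SE; edgeR adjusted p = 0.0199). Egfl7, a protein secreted by endothelial cells, had 1.01, 3.61 and 7.3 CPM, against 0.0631, 0.13 and 0.694 CPM, a change of 4.01 ± 0.72 (SE; edgeR adjusted p = 0.0227). In all 3 the lowest later library was above the highest earlier one, which the choice required. The changes without replicate 3 were 2.56, 2.74 and 3.95.

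Cd44, the receptor for hyaluronan, rose by 3.06 ± 0.61 and cald1, the actin-binding protein caldesmon, by 3.48 ± 0.71 (SE; edgeR adjusted p = 0.0299 and 0.0327). Cilp, a cartilage matrix protein in mammals, had 0.148, 5.23 and 10.8 CPM at 15-16 hpf, against 0, 0.062 and 0.134 CPM at 12-13 hpf, a change of 6.54 ± 1.23 (SE; edgeR adjusted p = 0.0263). Its change was 5.92 and 5.17 in replicates 1 and 2 and 1.34 in replicate 3. Myh2 is given with the muscle genes, and the other 3 rises differed when the transcripts of a symbol were summed. Cybb, a subunit of the phagocyte oxidase, changed by 8.01 for the transcript and 3.75 for the symbol, pdlim3, a protein of the muscle Z-disc, by 7.65 and 3.61, and clvs1 by 6.02 and 0.44. For clvs1 the summed change did not pass.

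The largest falls, chosen in the same way, held enzymes and early regulators. Hal.1, an enzyme of histidine breakdown, had 5.61, 10.2 and 21.6 CPM at 15-16 hpf, against 33.3, 48.4 and 134 CPM at 12-13 hpf, a change of -2.61 ± 0.45 (SE; edgeR adjusted p = 0.0218). Pnhd, a secreted protein of the Xenopus blastopore mesoderm, had 9.29, 16.7 and 58.5 CPM, against 64, 123 and 214 CPM, a change of -2.49 ± 0.56 (SE; edgeR adjusted p = 0.0418). Hes3.1, a transcription repressor of the hes family, had 9.45, 13.8 and 24.2 CPM, against 32.2, 49.5 and 64.3 CPM, a change of -1.72 ± 0.28 (SE; edgeR adjusted p = 0.0175). None of the 3 overlapped, which the choice required, and without replicate 3 their changes were -2.06, -2.82 and -1.83.

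Tat, which degrades tyrosine, fell by 2.08 ± 0.40, nos2, a nitric oxide synthase, by 1.98 ± 0.41, and the metalloprotease gene adamts5 by 2.29 ± 0.43, all in log2 units (SE; edgeR adjusted p = 0.0281, 0.0329 and 0.0263). IDUA, a lysosomal enzyme, SPNS2, a transporter of sphingosine 1-phosphate, and lrwd1, a protein of the origin recognition complex, fell by 1.81, 1.75 and 1.70. The largest fall, -6.29 for a transcript of brf1, was no fall of the gene, since its symbol summed to -0.04.

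**Figure D2:**
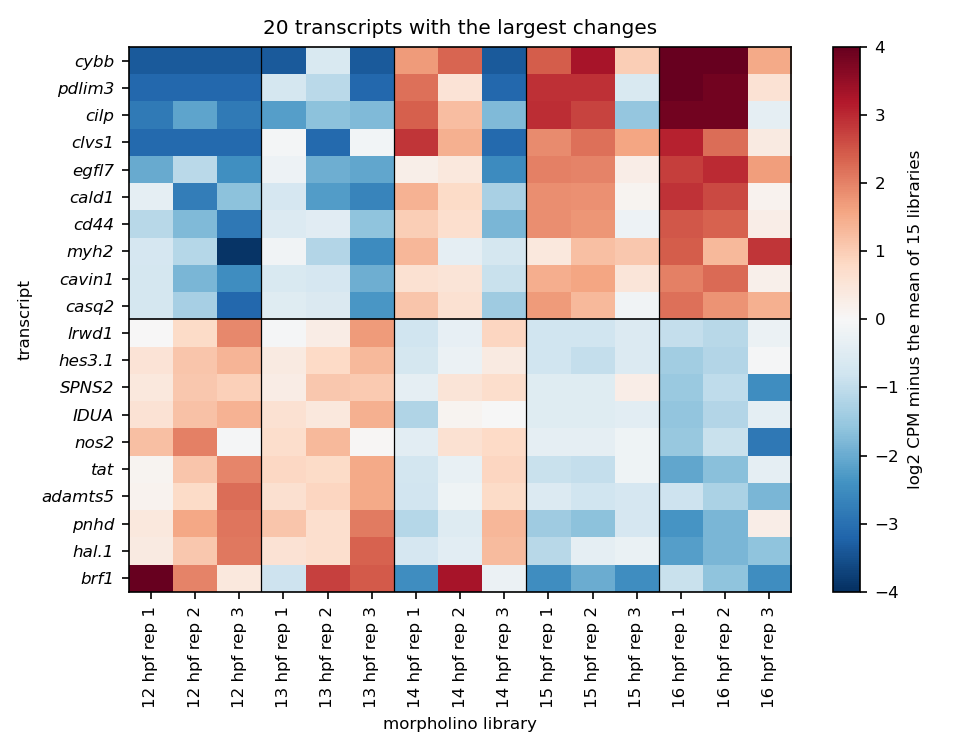
Log2 CPM of the 20 transcripts with the largest non-overlapping changes (rows) in the 15 morpholino libraries (columns, by hour), minus each transcript's mean over the 15; red is above and blue below that mean, and colours end at 4. The upper 10 are mostly red at 15-16 hpf and the lower 10 mostly blue, with paler colours in replicate 3 at 15 and 16 hpf for most rises. Some rises lie below their mean in replicate 3 at 15 hpf, among them cilp and pdlim3, and cilp does so at 16 hpf too.

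Muscle was the group with the highest median. Of 82 tested transcripts of myogenic and muscle genes, 8 rose (9.76%, against 1.94% of all tested) and 0 fell, with a median change of 1.65. At an adjusted p under 0.05 without replicate 3, 56 of 84 rose and 5 fell, with a median of 1.54. The summed level of the list was 6360, 12400 and 16000 TPM (a unit that allows for transcript length) at 15-16 hpf, against 2750, 5550 and 7730 TPM at 12-13 hpf. The 2 ranges overlapped because replicate 3 was low at both times and its later libraries had less than the highest earlier one. In whole embryos, more cells of a type and more RNA per cell cannot be told apart.

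Ckm, the muscle creatine kinase, had 3.2, 15.1 and 27.2 CPM at 15-16 hpf, against 1.39, 1.79 and 4.45 CPM at 12-13 hpf, a change of 2.61 ± 0.53 (SE; edgeR adjusted p = 0.0327). Its ranges overlapped through replicate 3 at 15 hpf, and the change was 2.78 without that replicate. Myh2, a myosin heavy chain, had 5.85, 10.5 and 31.9 CPM, against 0.189, 1.9 and 3.93 CPM, a change of 2.87 ± 0.60 (SE; edgeR adjusted p = 0.0338). Here replicate 3 moved most, by 5.17 against 1.83 and 2.40 in replicates 1 and 2. It was the lowest library at 12 and 13 hpf and the highest at 16 hpf. The myosin light chain gene myl4 rose by 3.47 (edgeR adjusted p = 0.0343). Myom1, which links thick filaments, had 1.6, 10.7 and 23.7 CPM, against 0.795, 1.37 and 1.7 CPM, a change of 3.08 ± 0.71 (SE; edgeR adjusted p = 0.0434). It changed by 3.41 and 3.92 in replicates 1 and 2 and by 0.19 in replicate 3, so replicate 3 at 16 hpf still held 1.85 CPM.

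Matrix transcripts also rose. Of 81 tested transcripts of collagens, laminins and other matrix genes, 7 rose (8.64%) and 0 fell, with a median of 0.76. Without replicate 3, 48 of 78 rose and 4 fell. Col9a3, a collagen of cartilage and notochord, had the smallest adjusted p of all transcripts. Its level was 32.3, 25.6 and 29 CPM at 12 hpf, 31.3, 29.5 and 25.7 CPM at 13 hpf and 43.5, 40 and 37.7 CPM at 14 hpf in replicates 1, 2 and 3. It was 65.2, 66.8 and 71 CPM at 15 hpf and 59.1, 73.8 and 66.2 CPM at 16 hpf. Every later library was above every earlier one, and the change was 1.21 ± 0.11 (SE; edgeR adjusted p = 0.000965).

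Col1a1, a fibrillar collagen, had 0.386, 0.964 and 5.45 CPM at 15-16 hpf, against 0, 0.0313 and 0.174 CPM at 12-13 hpf, a change of 4.52 ± 0.86 (SE; edgeR adjusted p = 0.0266). Fbln1, which binds basement membranes, had 132, 153 and 252 CPM, against 73.8, 84.9 and 107 CPM, a change of 0.98 ± 0.17 (SE; edgeR adjusted p = 0.0227). Neither overlapped between the times, but fbln1 changed by 0.56, 0.74 and 1.54 in replicates 1, 2 and 3, and by 0.64 without replicate 3. Sparc, a collagen-binding matrix protein, rose by 1.37 (edgeR adjusted p = 0.0285). In replicate 3 at 16 hpf the list summed to 919 TPM, below the 1650 to 2370 TPM of the 6 libraries at 12-13 hpf, while the other 5 later libraries had 2920 to 3370 TPM.

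Notochord and axial mesoderm had 3 of 42 transcripts higher (7.14%) and 1 lower, with a median of 0.49, and 21 higher and 9 lower without replicate 3. Ntn1, the guidance cue netrin, had 7.87, 11.8 and 13.6 CPM at 15-16 hpf, against 2.77, 5.03 and 7.58 CPM at 12-13 hpf, a change of 1.16 ± 0.23 (SE; edgeR adjusted p = 0.0296). The ranges did not overlap. Col9a2, which forms fibres with col9a3, rose by 1.2 (edgeR adjusted p = 0.0456). The member that fell was tbxt, described with the mesendoderm genes, which the blastopore also expresses.

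In heart and cardiac mesoderm, 2 of 38 transcripts rose (5.26%) and 0 fell, with a median of 0.31, and 15 of 37 rose and 5 fell without replicate 3. Nkx2-5, the transcription factor of the cardiac field, had 19.3, 30.3 and 41.8 CPM at 15-16 hpf, against 5.3, 13 and 19 CPM at 12-13 hpf, a change of 1.25 ± 0.29 (SE; edgeR adjusted p = 0.0434). The lowest later library was just above the highest earlier one, and the change was 0.59, 1.48 and 1.94 in replicates 1, 2 and 3. Hand2, another cardiac regulator, had 1.75, 5.97 and 11.2 CPM, against 0.568, 1.6 and 2.95 CPM, with overlap and a change of 1.96 ± 0.49 (SE; edgeR adjusted p = 0.0479). Smarcd3, a chromatin remodelling subunit of the heart, changed by 2.71 and did not pass (edgeR adjusted p = 0.0523), whereas it passed at 2.57 without replicate 3.

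Blood and endothelial genes had 3 of 42 transcripts higher (7.14%) and 0 lower, with a median of 0.61, and 19 of 41 higher and 7 lower without replicate 3. The embryonic globin hba3 had 0.653, 9.08 and 36.7 CPM at 15-16 hpf, against 0, 0.293 and 0.939 CPM at 12-13 hpf, a change of 5.13 ± 1.03 (SE; edgeR adjusted p = 0.0316). Its mean was 0.231, 0.486, 1.53, 6.27 and 22.7 CPM at 12, 13, 14, 15 and 16 hpf, and replicate 3 at 15 hpf gave the overlap. Lcp1, an actin bundler of white blood cells, had 0.119, 3.45 and 12.3 CPM, against 0, 0.195 and 0.636 CPM, a change of 4.13 ± 1.03 (SE; edgeR adjusted p = 0.0479). It changed by 3.11 and 5.04 in replicates 1 and 2 and by 1.13 in replicate 3.

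Mesendoderm and Nodal genes had the lowest median of the 37 lists, -1.25. Of 29 tested transcripts, 3 fell (10.3%, against 1.4% of all tested) and 1 rose, and without replicate 3, 22 fell and 1 rose. Tbxt, the transcription factor Brachyury, had 40.4, 45.2 and 93.5 CPM at 15-16 hpf, against 90.9, 120 and 260 CPM at 12-13 hpf, a change of -1.52 ± 0.34 (SE; edgeR adjusted p = 0.0417). The overlap came from replicate 3 at 15 hpf, the highest of the later libraries. Vegt, a T-box factor of mesoderm and endoderm, had 12.2, 19.9 and 62.7 CPM, against 57.5, 99 and 302 CPM, with overlap and a change of -2.34 ± 0.57 (SE; edgeR adjusted p = 0.0466).

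Gdf3, a ligand of the Nodal type, had 8.28, 14 and 31.5 CPM at 15-16 hpf, against 31.5, 38.6 and 41.9 CPM at 12-13 hpf, a change of -1.25 ± 0.30 (SE; edgeR adjusted p = 0.0459). The highest later library lay next to the lowest earlier one without passing it. The member that rose was wnt11, a ligand of convergent extension that is also expressed in later tissues, with 11.3, 23.6 and 24.8 CPM, against 2.84, 7.2 and 9.78 CPM. Its change was 1.66 ± 0.34 (SE; edgeR adjusted p = 0.0337), with no overlap.

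In the organizer list edgeR called 0 of 25 transcripts, with 8 at an unadjusted p under 0.05, while DESeq2 called 3 higher and 3 lower and voom 0. Without replicate 3, 11 fell and 3 rose. Lhx1, a LIM-domain factor of the organizer, changed by -0.64, and the Wnt antagonist sfrp2 by 1.19, both short of the threshold (edgeR adjusted p = 0.0593 and 0.0683). Without replicate 3 both passed, at -0.54 and 1.43. Of 46 BMP pathway and ventral transcripts edgeR called 0, with 23 at an unadjusted p under 0.05 and a median of -0.40, while DESeq2 called 4 higher and 5 lower and voom 0. Without replicate 3, 28 of them fell and 5 rose. Ventx1.1, a ventral repressor downstream of BMP, had 11.6, 17.6 and 46.2 CPM at 15-16 hpf, against 38.3, 56.1 and 127 CPM at 12-13 hpf, and its change of -1.74 ± 0.47 did not pass (SE; edgeR adjusted p = 0.0567). Without replicate 3 it passed, at -1.64.

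Maternal and germ plasm genes had 2 of 48 transcripts lower (4.17%) and 0 higher, with a median of -0.55, and 25 of 46 lower and 0 higher without replicate 3. Both called members encode Tudor proteins of germ granules. A transcript of tdrd7 had 24.8, 28.9 and 31.3 CPM at 15-16 hpf, against 36.1, 45.1 and 51.1 CPM at 12-13 hpf, a change of -0.66 ± 0.12 with no overlap (SE; edgeR adjusted p = 0.0227). Tdrd6 had 19.2, 28.6 and 66.2 CPM, against 41.2, 60.3 and 71.2 CPM, a change of -0.89 ± 0.21 with overlap (SE; edgeR adjusted p = 0.0456).

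Paraxial mesoderm and segmentation had 3 of 44 transcripts lower (6.82%) and 1 higher, with a median of -0.25, and 25 lower and 9 higher without replicate 3. The fallers were 2 transcripts of pcdh8.2, a protocadherin of forming somites, at -0.95 and -0.88, and meox2, a somite homeobox gene. Meox2 had 12, 19.7 and 30.8 CPM at 15-16 hpf, against 29, 31.1 and 37.1 CPM at 12-13 hpf, a change of -0.69 ± 0.15 with overlap (SE; edgeR adjusted p = 0.0403). The riser was hes1, a Notch effector used in many tissues, with 64.1, 73.9 and 81.8 CPM, against 29.1, 40.5 and 49.5 CPM. It did not overlap and changed by 0.87 ± 0.16 (SE; edgeR adjusted p = 0.0248).

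**Figure D3:**
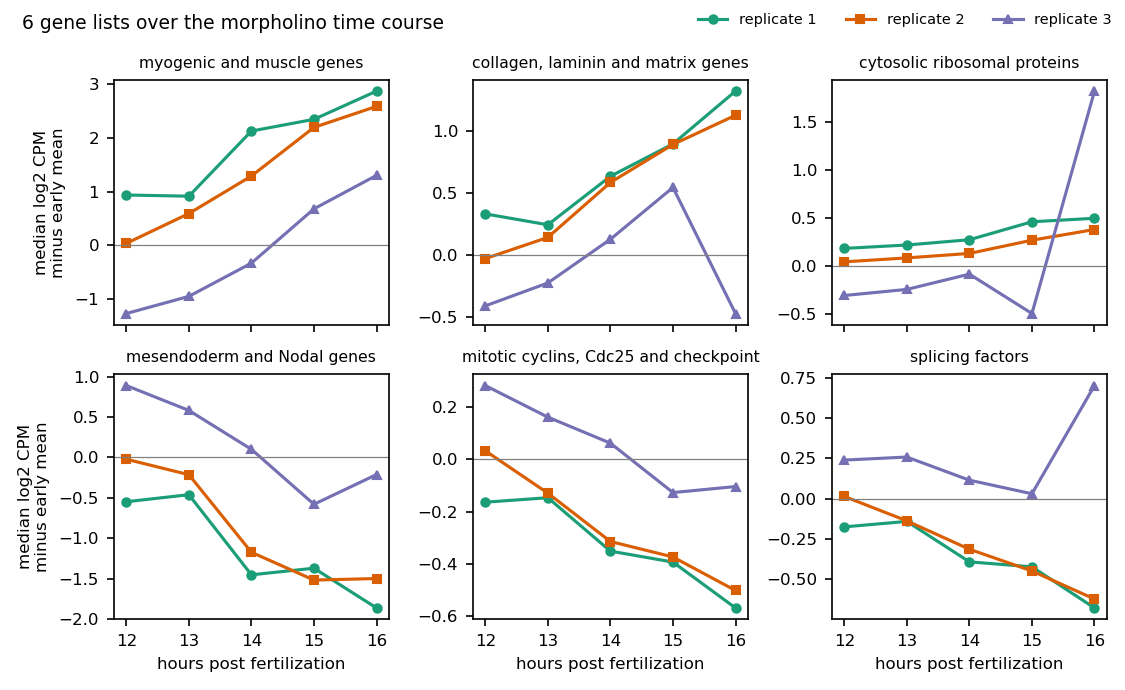
Median over the tested transcripts of 6 gene lists of log2 CPM minus the mean of the 6 libraries at 12-13 hpf, in each morpholino library, against hours post fertilization; lines join the libraries of a replicate number. Muscle rises and mesendoderm falls in all 3 replicates, whereas in replicate 3 at 16 hpf ribosomal protein genes reach 1.82, splicing factors 0.70 and matrix genes -0.47, away from replicates 1 and 2.

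Proneural and early neuron genes had 1 of 60 transcripts higher (1.67%, near the 1.94% of all tested), with a median of 0.73, and 27 of 61 higher and 5 lower without replicate 3. The called member, ebf2, a helix-loop-helix factor of new neurons, had 40.4, 57.9 and 60.1 CPM at 15-16 hpf, against 8.65, 15.8 and 27.7 CPM at 12-13 hpf. Its change was 1.63 ± 0.31 with no overlap (SE; edgeR adjusted p = 0.027). Of 42 early neural plate transcripts edgeR called 0, with 12 at an unadjusted p under 0.05, DESeq2 called 3 higher and 4 lower and voom 0. Without replicate 3, 14 fell and 7 rose. Sox2, the factor that marks the neural plate, had 55.1, 72.2 and 110 CPM, against 94.7, 103 and 140 CPM, and its change of -0.55 ± 0.15 did not pass (SE; edgeR adjusted p = 0.0603). It passed without replicate 3, at -0.52.

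Neural crest specifiers had 2 of 53 transcripts higher and 1 lower, with a median of 0.03, and 16 higher and 20 lower without replicate 3. Kctd15, an inhibitor of crest formation, changed by -0.97 ± 0.20, mycn, a proliferation factor, by 1.37 ± 0.34, and ednra, the endothelin receptor of migrating crest, by 3.27 ± 0.81 (SE; edgeR adjusted p = 0.0327, 0.0475 and 0.0478). Kctd15 changed by -0.67 and did not pass when its transcripts were summed. In the placode, eye field and forebrain list 1 of 62 rose. It was eya2, a placode cofactor, with 47.7, 57.9 and 63.4 CPM at 15-16 hpf, against 26.4, 36.4 and 40.5 CPM at 12-13 hpf, a change of 0.70 ± 0.12 with no overlap (SE; edgeR adjusted p = 0.0227). The list median was 0.15, and without replicate 3 it was -0.05. Then 13 of 60 were higher (21.7%, against 21.3% of all tested) and 19 lower (31.7%, against 21%).

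Of 43 midbrain, hindbrain and isthmus transcripts 1 fell, the FGF feedback inhibitor spry1, by 0.51 ± 0.12 log2 units with no overlap (SE; edgeR adjusted p = 0.0435). Without replicate 3, 6 of that list rose (14%, against 21.3% of all tested) and 10 fell (23.3%, near the 21% of all tested). Hox and Cdx genes had 1 riser and 1 faller of 42. Hoxc10, a posterior Hox gene, changed by 0.82 ± 0.21 (SE; edgeR adjusted p = 0.0491). Cdx1, a posterior homeobox gene, had 62.8, 105 and 258 CPM at 15-16 hpf, against 255, 295 and 454 CPM at 12-13 hpf, a change of -1.35 ± 0.33 with overlap (SE; edgeR adjusted p = 0.0466). Without replicate 3, 15 Hox and Cdx transcripts rose and 7 fell.

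The epidermis, ionocyte and secretory cell list had 6 of 69 transcripts higher (8.7%) and 0 lower, with a median of 0.25, and 26 of 71 higher and 16 lower without replicate 3. Krt19, a keratin of the simple epidermis, had 1070, 1320 and 2150 CPM at 15-16 hpf, against 564, 835 and 912 CPM at 12-13 hpf, a change of 0.86 ± 0.20 with no overlap (SE; edgeR adjusted p = 0.0426). Replicate 3 changed by 1.61, against 0.40 and 0.56 in replicates 1 and 2, and the change without replicate 3 was 0.47. Pkp3, a desmosome protein, changed by 0.69 ± 0.16 (SE; edgeR adjusted p = 0.042). The proton pump subunits of ionocytes atp6v1b1 and atp6v0d2, picked after their values were seen, rose by 1.62 and 0.71. Other ionocyte members of the list are not given, so these values do not describe ionocyte genes as a group.

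The endoderm list split evenly, with 2 of 39 transcripts higher and 2 lower (5.13% each way) and a median of -0.02. Without replicate 3, 8 rose (20.5%, against 21.3% of all tested) and 12 fell (30.8%, against 21%). Pdx1, the factor of pancreas and duodenum, had 1.04, 3.44 and 6.94 CPM at 15-16 hpf, against 0.226, 0.516 and 0.983 CPM at 12-13 hpf, a change of 2.60 ± 0.54 with no overlap (SE; edgeR adjusted p = 0.0342). Ttr, a thyroid hormone carrier made by liver, changed by 1.22 ± 0.30 (SE; edgeR adjusted p = 0.0466). The fallers were vegt and cdx1. In the pronephros and intermediate mesoderm list 2 of 38 rose (5.26%), wnt11 and osr1, an early kidney factor that changed by 0.69 ± 0.17 (SE; edgeR adjusted p = 0.047). Without replicate 3, 13 rose and 13 fell in that list. In the cement gland and hatching gland list 1 of 19 rose, krt19. The hatching enzyme uvs.2 changed by 4.54 and did not pass (edgeR adjusted p = 0.0708), but passed with the same change when replicate 3 was left out. Without that replicate 5 of 18 transcripts of the list rose and 2 fell.

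Regulators that commit cells to multiple cilia and build centrioles had 3 of 47 transcripts lower (6.38%) and 0 higher, and 16 of 46 lower and 3 higher without replicate 3. MCIDAS, which switches on the multiciliated program, had 50.4, 49.6 and 38.9 CPM at 12 hpf, 33.4, 48.2 and 46.2 CPM at 13 hpf and 25.1, 35.7 and 41.1 CPM at 14 hpf in replicates 1, 2 and 3. It had 19.8, 20.3 and 39.6 CPM at 15 hpf and 3.52, 8.02 and 19.5 CPM at 16 hpf. Replicate 3 at 15 hpf overlapped the earlier libraries, and the change was -1.43 ± 0.34 (SE; edgeR adjusted p = 0.0456), or -2.07 without replicate 3.

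Cep152, a scaffold of new centrioles, had 29.6, 35 and 39.3 CPM at 15-16 hpf, against 41.6, 47.7 and 51.6 CPM at 12-13 hpf, a change of -0.46 ± 0.10 (SE; edgeR adjusted p = 0.0364). Plk4, the kinase that starts centriole duplication, had 23.2, 42.1 and 51.3 CPM, against 51.6, 59.7 and 61.5 CPM, a change of -0.56 ± 0.13 (SE; edgeR adjusted p = 0.0426). Neither overlapped.

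Axonemal genes, which build the beating shaft, had 5 of 140 transcripts higher (3.57%) and 0 lower, with a median of 0.51. Without replicate 3, 30 of 139 were higher (21.6%, against 21.3% of all tested) and 4 lower. Cfap52, a protein of the axoneme, had 41.3, 55.3 and 76.7 CPM at 15-16 hpf, against 24.2, 31.3 and 42.2 CPM at 12-13 hpf, with overlap and a change of 0.83 ± 0.18 (SE; edgeR adjusted p = 0.0403). It changed by 0.33, 0.72 and 1.42 in replicates 1, 2 and 3, and by 0.51 without replicate 3. Tekt3, a filament protein inside the doublets, had 7.21, 13.9 and 28.1 CPM, against 1.52, 2.26 and 7.14 CPM, a change of 2.1 ± 0.51 with no overlap (SE; edgeR adjusted p = 0.0466). Tcte1, of the nexin-dynein regulatory complex, rose by 1.56 ± 0.35 (SE; edgeR adjusted p = 0.0408). The median of the list was 0.19 in replicate 1, against 0.62 and 0.65 in replicates 2 and 3.

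Calls among cell division genes were all falls. Of 88 transcripts of mitotic cyclins, Cdc25 and checkpoint genes, 4 fell (4.55%) and 0 rose, with a median of -0.38, close in replicates 1, 2 and 3 (-0.33, -0.42 and -0.41). Prc1, which bundles the central spindle, had 116, 127 and 154 CPM at 15-16 hpf, against 167, 200 and 242 CPM at 12-13 hpf, a change of -0.65 ± 0.13 with no overlap (SE; edgeR adjusted p = 0.0327). The checkpoint gene bub3, the spindle gene hmmr and the cytokinesis gene ect2 fell by 0.53, 0.69 and 1.18 on the log2 scale. Of 81 replication transcripts 3 fell (3.7%) and 0 rose, with a median of -0.29.

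Ccne2, a cyclin of S-phase entry, had 70.5, 95 and 158 CPM at 15-16 hpf, against 179, 259 and 375 CPM at 12-13 hpf, a change of -1.45 ± 0.27 with no overlap (SE; edgeR adjusted p = 0.0261). Its mean was 278, 270, 177, 116 and 86.2 CPM at 12, 13, 14, 15 and 16 hpf, lower at each hour than at the one before. The replication checkpoint gene topbp1 and slbp, which binds histone mRNA, fell by 0.49 and 0.53 on the log2 scale (edgeR adjusted p = 0.0445 and 0.0466). Without replicate 3, 54 of 88 mitotic and 43 of 82 replication transcripts fell, and 2 and 0 rose.

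For splicing and ribosome genes the values depended on replicate 3. Of 102 splicing factor transcripts 1 fell (0.98%), srsf10, by 0.70 ± 0.17 log2 units (SE; edgeR adjusted p = 0.0479), with a list median of -0.17. Without replicate 3, 80 of 102 fell (78.4%, against 21% of all tested) and 6 rose, with a median of -0.43. The summed level of the list in replicate 3 was 55760 TPM at 16 hpf, against 34870 and 36650 TPM in replicates 1 and 2.

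Of 87 cytosolic ribosomal protein transcripts edgeR called 0, with 47 at an unadjusted p under 0.05 and a median of 0.59, while DESeq2 called 17 higher and voom 0. Without replicate 3, 54 of 88 rose and 0 fell, with a median of 0.26. Rps13 had 177, 190 and 502 CPM at 15-16 hpf, against 100, 133 and 150 CPM at 12-13 hpf, with no overlap, and its change of 0.90 ± 0.24 did not pass (SE; edgeR adjusted p = 0.054), while it passed at 0.38 without replicate 3. It changed by 0.36 and 0.43 in replicates 1 and 2 and by 1.68 in replicate 3. The summed level of the list in replicate 3 was 51580 TPM at 15 hpf and 141000 TPM at 16 hpf, against 91320 to 104800 TPM in replicates 1 and 2 at those hours.

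Of 13 transcripts encoded in mitochondria edgeR, DESeq2 and voom each called 0, with 0 at an unadjusted p under 0.05 in edgeR and a median of -0.08. Without replicate 3, 12 fell, with a median of -0.38. ND5, a subunit of respiratory complex I, had 430, 479 and 912 CPM at 15-16 hpf, against 578, 723 and 1310 CPM at 12-13 hpf, and its change of -0.63 ± 0.32 did not pass (SE; edgeR adjusted p = 0.237). It passed without replicate 3, at -0.50. Replicate 3 had the highest summed level of these transcripts at each hour. Among 73 nuclear transcripts of oxidative phosphorylation 1 rose, sdhb, by 0.94 ± 0.23 (SE; edgeR adjusted p = 0.0456). Sdhb had 59.7 CPM in replicate 3 at 16 hpf, far above the next library at 24.6 CPM, and changed by 0.63 without that replicate. The 1 riser was 1.37% of the list, against 1.94% of all tested. The list had a median of 0.22, and without replicate 3 one of -0.04. Then 8 were higher (11%, against 21.3% of all tested) and 13 lower (17.8%, against 21%). Of 36 proteasome transcripts edgeR called 0, with 4 at an unadjusted p under 0.05, DESeq2 called 2 lower and voom 0. Without replicate 3 edgeR called 2 higher (5.56%, against 21.3% of all tested) and 8 lower (22.2%, near the 21% of all tested).

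Glycolysis enzymes had 1 of 24 transcripts higher (4.17%) and 0 lower, and 12 of 25 higher and 5 lower without replicate 3. Aldoa, an aldolase, had 275, 342 and 388 CPM at 15-16 hpf, against 153, 203 and 223 CPM at 12-13 hpf, a change of 0.79 ± 0.13 with no overlap (SE; edgeR adjusted p = 0.0196). The list of H2B ubiquitin, PAF1 and COMPASS genes, the machinery RNF20 belongs to, had 0 of 55 called by edgeR, 8 at an unadjusted p under 0.05 and a median of -0.13. DESeq2 called 1 higher and 3 lower and voom 0, and without replicate 3 edgeR called 28 lower and 3 higher. Ube2a, the enzyme that hands ubiquitin to RNF20, had 32.7, 37.9 and 38.9 CPM, against 44.9, 47.9 and 50.5 CPM. It did not overlap, and its change of -0.37 ± 0.10 did not pass (SE; edgeR adjusted p = 0.0525), and it passed without replicate 3, at -0.32.

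Signalling lists held few calls. In the Notch list 1 of 41 transcripts rose, hes1, and in the FGF list 1 of 40 fell, spry1. Without replicate 3 the Notch list had 7 of 41 higher and 15 lower, and the FGF list 7 of 41 higher and 8 lower. The FGF shares, 17.1% and 19.5%, were no higher than the 21.3% and 21% of all tested. Of 32 retinoic acid transcripts 1 rose, rdh11, a retinol dehydrogenase that had 1.25, 1.73 and 2.69 CPM at 15-16 hpf, against 0.289, 0.397 and 0.671 CPM at 12-13 hpf. Its change was 2.03 ± 0.30 with no overlap (SE; edgeR adjusted p = 0.0137), and it was 1.91, 1.77 and 1.82 in replicates 1, 2 and 3. The list had 3 of 31 higher and 13 lower without replicate 3. Of 60 Wnt transcripts 2 rose, wnt11 and the antagonist apcdd1, which changed by 1.11 ± 0.26 (SE; edgeR adjusted p = 0.0426). Without replicate 3, 17 of 59 Wnt transcripts rose and 20 fell. Of 25 Hedgehog transcripts edgeR called 0, with 6 at an unadjusted p under 0.05, DESeq2 called 3 higher and 1 lower and voom 0. Without replicate 3 edgeR called 5 higher and 5 lower, 20% each way, near the 21.3% and 21% of all tested.

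Among 56 p53 target and cell death transcripts, 3 rose (5.36%) and 1 fell, with a median of -0.01. Without replicate 3, 17 of 55 rose and 13 fell, with a median of 0.21. Sesn1, a stress-induced inhibitor of growth signalling, had 8.51, 26.4 and 45.8 CPM at 15-16 hpf, against 7.92, 9.02 and 11 CPM at 12-13 hpf, with overlap and a change of 1.52 ± 0.31 (SE; edgeR adjusted p = 0.0321). Mdm4, an inhibitor of p53, changed by 0.80 ± 0.20 (SE; edgeR adjusted p = 0.0485). The faller was a transcript of perp at -0.94, whose symbol summed to -0.04.

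**Figure D4:**
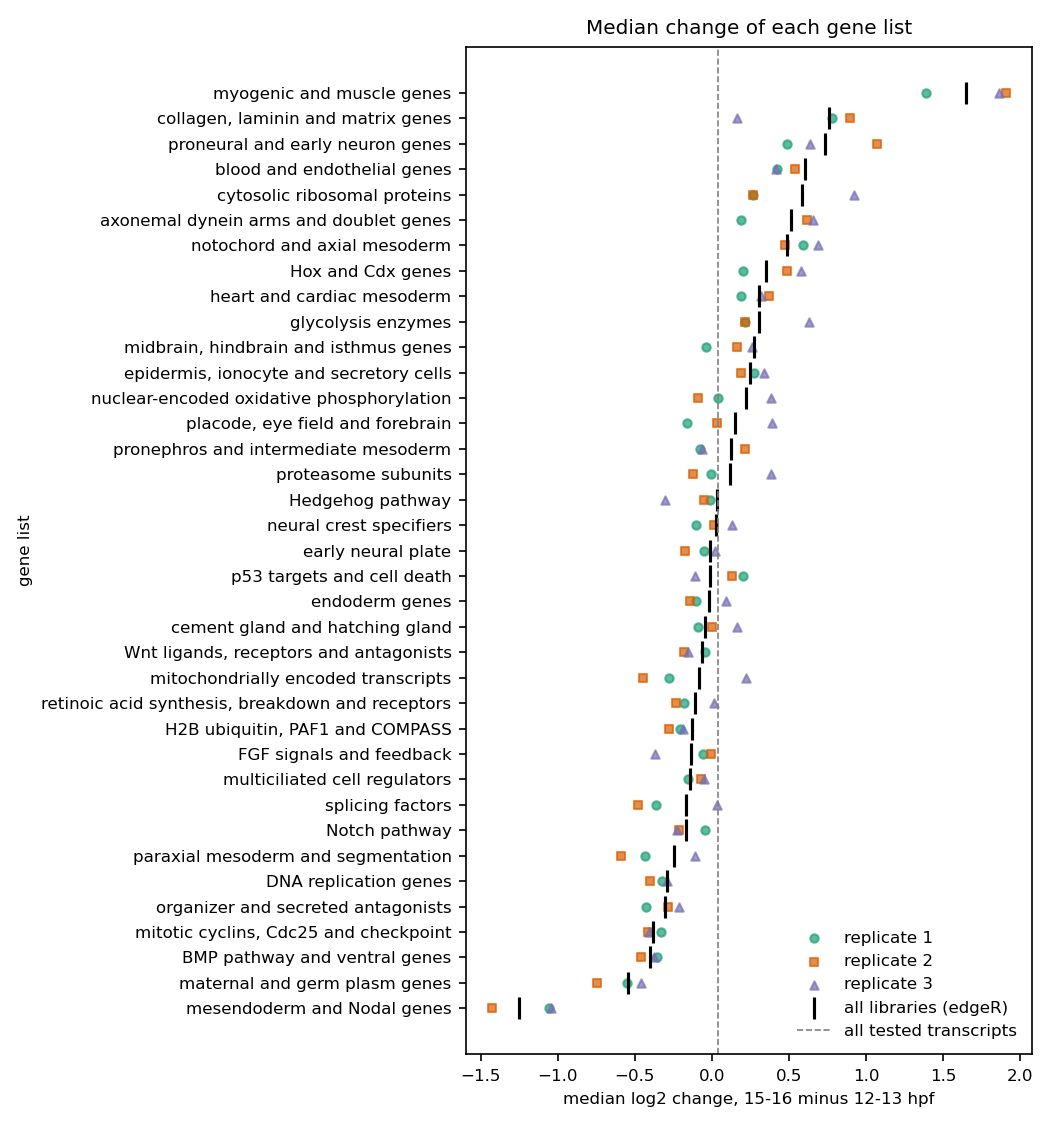
Median log2 change between 15-16 and 12-13 hpf of the tested transcripts of 37 gene lists (rows), as edgeR's fit of all libraries (black bars) and within each replicate number (points), with the median of all tested transcripts as a dashed line at 0.036. Muscle is highest at 1.65 and mesendoderm lowest at -1.25, and ribosomal protein genes are at 0.92 in replicate 3 and at 0.27 in each of the other replicates.

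In called transcripts, levels at 14 hpf mostly lay between the earlier and later ones. Of the 309 risers, 307 had a 14 hpf level between the 2 means (99.4%), at a median of 51.6% of the way from 12-13 to 15-16 hpf. Of the 223 fallers, 218 did (97.8%), at a median of 46.7% of the way. These transcripts were chosen for a large gap between the same 2 means, which by itself favours a level inside it. The share over all tested transcripts was not taken, so no conclusion is drawn from these percentages. Without replicate 3 the medians were 62.7% for risers and 60.3% for fallers, over 3348 and 3354 transcripts.

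The steps to and from 14 hpf held almost no calls with all libraries. At 14 against 12-13 hpf 0 transcripts rose (0%) and 1 fell (0.00627%), with 489 at an unadjusted p under 0.05. At 15-16 against 14 hpf 1 rose (0.00627%) and 0 fell (0%), with 484 at an unadjusted p under 0.05. DESeq2 called 10 higher and 14 lower in the step to 14 hpf and 13 and 8 in the step from it. The called transcript in both steps was of commd8, listed at 0 in all 3 libraries at 14 hpf and at 1.42 to 7.71 CPM in the other 12. A 0 in estimated counts can be a failed assignment, and the transcript's change over the whole course was -0.02.

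Without replicate 3, 332 transcripts rose (2.08%) and 293 fell (1.84%) between 12-13 and 14 hpf, 3.92% in all. Then 0 were called between 14 and 15-16 hpf by edgeR, where the smallest adjusted p was 0.0519 and 2483 had an unadjusted p under 0.05. The difference between the steps was not tested. A transcript of ADGRD2, an adhesion receptor gene, was first listed above 0 at 14 hpf. It was listed at 0 in all 6 libraries at 12-13 hpf, at 3.22, 2.01 and 0 CPM at 14 hpf and at 0 to 11.1 CPM at 15-16 hpf. Its later level, 583 counts in all, was at least 143-fold higher than a floor of 3 counts over the 6 earlier libraries, and it passed (edgeR adjusted p = 0.0495). Summed over the transcripts of its symbol, the change was 3.52, so the fold is that of this transcript and not of the gene. In replicate 3 the transcript had 0.415 CPM at 15 hpf and 0 at 16 hpf.

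The same hours in wild type gave 157 transcripts higher (0.925%) and 121 lower (0.713%) of 16967 tested with all 25 libraries, from 4 libraries against 4. The morpholino and wild-type time changes share no library. The wild-type calls, however, took their filter, scaling and spread from all 25 libraries, so the shared calls are not independent. Of the 309 morpholino risers 59 were called higher in wild type, 19.1% of the morpholino list and 37.6% of the wild-type list. Of the 223 fallers 57 were called lower in wild type, 25.6% and 47.1% of the 2 lists. The sign in wild type was the same for 306 risers and 221 fallers (99% and 99.1%), against 51.9% and 47.6% of all tested transcripts with that sign. The median change of the risers was 1.24 in morpholino embryos and 0.81 in wild type, and that of the fallers -0.85 and -0.61. These transcripts were chosen by their morpholino change, which favours larger values there. The medians therefore cannot show which embryos changed more.

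The test of the difference itself, morpholino time change minus wild-type time change, called 0 of 16967 transcripts with edgeR (0%), and 639 had an unadjusted p under 0.05. DESeq2 called 9 higher and 11 lower. Without replicate 3 edgeR called 0, with 1797 at an unadjusted p under 0.05 and a smallest adjusted p of 0.0555, and without wild-type replicate 1 at 16 hpf it called 3 higher. No transcript is therefore named as changing differently. MCIDAS in wild type had 0.836, 5.36, 0.74 and 1.66 CPM at 15-16 hpf, against 30.9, 47.3, 12.9 and 27.2 CPM at 12-13 hpf. Its time change was -1.43 in morpholino embryos and -3.87 in wild type, a difference of 2.45 that did not pass (edgeR adjusted p = 1).

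Col9a3 in wild type had 79.1, 85.2, 68.2 and 87.4 CPM at 15-16 hpf, against 44.6, 40.6, 57.7 and 50.6 CPM at 12-13 hpf, with no overlap. Its change was 1.21 in morpholino embryos and 0.74 in wild type. Nkx2-5 in wild type had 31.2, 44.5, 31.8 and 43.5 CPM, against 29.9, 26.5, 36.5 and 38.6 CPM, with overlap, and changed by 1.25 in morpholino embryos and 0.21 in wild type. Regulators of multiciliated cells had 3 of 47 transcripts lower in morpholino embryos (16 of 46 without replicate 3) and 12 of 47 in wild type. Muscle had 8 of 82 higher in morpholino embryos (56 of 84 without replicate 3) and 4 of 91 in wild type. These pairs of counts come from fits with different numbers of libraries, and 0 members of any list were called in the difference.

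**Figure D5:**
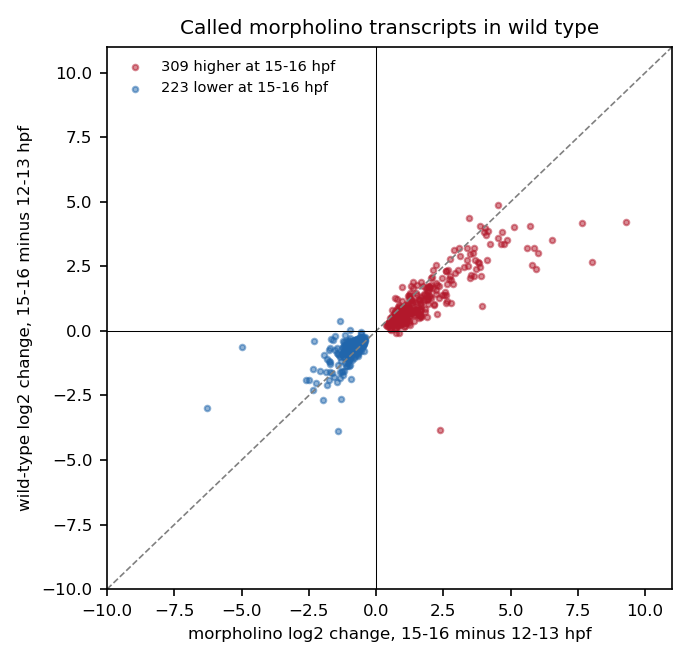
Log2 change between 15-16 and 12-13 hpf in morpholino embryos (horizontal) and in wild type (vertical) for the 309 transcripts called higher (red) and 223 called lower (blue) in morpholino embryos; the dashed line marks equal changes. Of them, 306 and 221 lie on the same side of 0 in wild type, and the medians of the risers are 1.24 and 0.81. The transcripts were chosen by the horizontal change, which favours larger values on that axis.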

How the data were processed

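The authors' deposited tables give estimated counts and TPM of 22891 transcripts per library, made with kallisto per the submitters' processing notes, which also name sleuth. The sources used here give no versions, options or transcriptome build. Transcript identifiers have the Xenopus tropicalis prefix although the labelled species is Xenopus laevis, so reads of duplicated gene copies may share a transcript, and paralogs and transcripts of a gene can trade reads. Symbols came from the authors' deposited comparison table of 12 hpf.

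Estimated counts, of which 34.9% to 37.7% per library were not whole (tolerance 1e-06), were rounded. edgeR 4.0.16 (R 4.3.3) filtered the 15 libraries by filterByExpr with the 5 hours as groups, which left 15945 transcripts (69.7%), 13961 with a symbol, scaled them by TMM and fitted 5 hour means by quasi-likelihood. The mean of 15 and 16 hpf was set against that of 12 and 13 hpf, with Benjamini-Hochberg adjustment over all transcripts and a threshold of 0.05. SE was taken as the absolute change over the square root of F. The difference from wild type used all 25 libraries. Within a replicate, changes are of log2 CPM with a prior count of 2. Summed TPM, not scaled by TMM, served for list levels. DESeq2 1.42.0, limma 3.58.1 voom and other filters, scalings, blocks and left-out libraries were alternatives. The fits were also run on simulated libraries, drawn independently, with no effect of replicate number and no deviating library. The data differ in both, so the simulation gives no error rate for them.

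The members, the 37 gene lists and all tests were chosen with earlier results of these data known. Transcripts for naming were rnf20, rnf40 and the 10 largest non-overlapping rises and falls with a symbol and at least 1 log2 CPM. Added were 3 transcripts per list by smallest p (4 in the muscle, matrix, notochord, segmentation, endoderm and mitotic lists). The rest were calls in each step to and from 14 hpf and in the difference, and the 5 calls where replicate 3 differed most. Only part of these are printed, and not always in the order of p. The organizer list, for example, is given with sfrp2 but without twsg1, whose p was smaller. Atp6v1b1 and atp6v0d2, and the wild-type levels shown, were picked after their values were seen. Labels do not say that replicates are separate clutches, so the p-values reflect only how these samples vary, which may be technical. No pair of replicates agreed within sampling noise.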

Additional observations from a re-analysis of the deposited data

Results flagged for a closer look

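The named transcripts at 15-16 and at 12-13 hpf gave 244 groups of 6 libraries. In 29 of them the highest or lowest library was set off from the other 5 by Dixon's criterion. In 24 of the 29 that library was replicate 3 at 15 hpf (12) or 16 hpf (12), and what set it apart was not tested. The criterion's nominal chance rate of about 5% of groups does not apply here. Each group pools CPM of different hours, and most of the transcripts were chosen by their values in these libraries. The count of 29 is therefore not set against chance.

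Replicate 3 at 16 hpf was the highest library of its group for genes of protein synthesis, energy and turnover. These were rps13 at 502 CPM (next 217), rpsa at 1350 CPM (next 621), rpl19 at 897 CPM (next 387), sdhb at 59.7 CPM (next 24.6), ndufb2 at 16.9 CPM (next 7.48), psmd10 at 9.47 CPM (next 5.42) and psmd14 at 193 CPM (next 107). It was also highest for krt19 at 2150 CPM (next 1380), hoxb5 at 8.51 CPM (next 5.18), rdh13 at 11.3 CPM (next 6.68) and ventx1.1 at 46.2 CPM (next 23.4), and lowest for topbp1 at 48.3 CPM (next 68.4).

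Replicate 3 at 15 hpf was the highest library for rnf40 at 207 CPM (next 126), twsg1 at 10.8 CPM (next 6.99), tbxt at 93.5 CPM (next 53.5), tdrd6 at 66.2 CPM (next 34.4), frs2 at 133 CPM (next 107) and smad7 at 43.6 CPM (next 23.9). It was also highest for ND4L at 217 CPM (next 112), ND5 at 912 CPM (next 593), supt5h at 171 CPM (next 116) and usp3 at 48 CPM (next 38.3). It was lowest for wnt11 at 11.3 CPM (next 22.5) and ebf2 at 40.4 CPM (next 53.6).

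At 12-13 hpf, single libraries stood off for cybb (0.604 CPM, next 0, replicate 2 at 13 hpf), brf1 (14 CPM, next 3.82, replicate 1 at 12 hpf), wnt10b (0.265 CPM, next 0.0631, replicate 2 at 12 hpf), plk4 (51.6 CPM, next 58.6, replicate 3 at 12 hpf) and boc (14.7 CPM, next 20.9, replicate 3 at 13 hpf).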

How the results depend on the processing

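The 532 called transcripts kept their direction under every alternative fitted per transcript that gave them a value. With counts summed per symbol, their direction was not checked as a set. The number of calls moved widely, and the cause was not tested. The alternatives reuse the libraries by which the 532 were chosen, so the kept direction is no independent support. Higher and lower calls were 127 and 62 with no filter on low counts, 609 and 420 with counts summed per symbol, 1589 and 1076 with all 25 libraries in the fit, 1403 and 877 with DESeq2, and 1104 and 713 with a straight line through the hours. They were 0 and 0 for 3 sums against 3 (2757 at an unadjusted p under 0.05) and 998 and 815 for those sums with a replicate block. RLE factors and voom made 63.3% and 51.2% of calls higher, against 58.1%. Leaving out a library or a replicate number gave 0 to 3391 higher and 0 to 3354 lower calls, with 0 in all without replicate 1 and without replicate 2.

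At 14 against 12-13 hpf, DESeq2 called 10 higher and 14 lower, while symbol sums, all 25 libraries and voom called 0 lower, and left-out libraries gave 0 to 332 higher and 0 to 293 lower. At 15-16 against 14 hpf, DESeq2 called 13 higher and 8 lower, symbol sums, all 25 libraries and voom 0 higher, and left-out libraries 0 to 2 higher. For the difference from wild type DESeq2 called 9 higher and 11 lower, and left-out libraries gave 0 to 3 higher.

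With the replicate number as a block, 2211 were higher and 1645 lower, with 1 higher and 0 lower in the step to 14 hpf and 0 higher in the step from it. After the mean of each hour was subtracted from log2 CPM, same-numbered libraries correlated at 0.127 to 0.448, 0.0325 to 0.209 and 0.255 to 0.564 for numbers 1, 2 and 3. The values were over 0.1 in 10, 8 and 10 of 10 pairs of hours. By this measure 13 of 15 libraries correlated best with their own number. The labels do not say what a shared number means, so the main fit used no block. These values show that same-numbered libraries resembled each other, and the fit without a block left this in its spread. A transcript given as not passing did so in that fit.

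Each of the 73 named calls lost its threshold under at least 1 alternative, and none changed direction. The loss was bound to occur, since 0 transcripts were called without replicate 1 and without replicate 2. The SE values rest on the spread between these libraries, whereas the fold given for ADGRD2 takes in no variation between libraries. Transcripts of a few counts, such as col1a1 or ADGRD2, rest on few or no reads in the earlier libraries.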
